A study of Mus musculus with 9 samples.

Results

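The enzymes that break down amino acids in the liver were followed as a set of 40 genes, taken by symbol from the count tables and grouped by the amino acid they act on. All 40 were found among the 23337 genes of the tables, and all 40 passed the filter on low counts that left 12587 genes for testing. The least abundant of them, Sdsl, had 153 to 287 reads in each library. RNA was sequenced from livers of wild-type (WT) mice, taken in the fed state, on 3 diets with 3 livers each. Mice received a normal diet (ND), a 60% high-fat diet (HFD), or the 60% HFD with 0.25% hyodeoxycholic acid (HFD_HDCA), and each diet lasted 12 weeks from an age of 8 weeks. All 3 groups share the WT genotype, and hyodeoxycholic acid, a secondary bile acid, was given only on the HFD, so its addition to ND was not analysed here. The labels give 9 separate samples and do not say how cages, litters or days were arranged, so the p-values measure the spread between these samples.

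The liver is the main site at which surplus amino acids are degraded, with branched-chain amino acids as the best known exception, since their first transamination takes place largely in muscle. Amino groups are removed by transaminases and deaminases and pass to the urea cycle, while the carbon skeletons enter gluconeogenesis, ketone body formation or the citric acid cycle. Several of the first enzymes, among them tyrosine aminotransferase, serine dehydratase and histidase, are textbook targets of glucagon, glucocorticoids and dietary protein, and many enzymes of the set are more abundant in periportal than in pericentral hepatocytes.

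Reads assigned to genes numbered 16994353 to 20509203 per library, at which 3 reads correspond to 0.152 to 0.182 CPM, the unit of reads scaled to library size used throughout. This limit covers counting error only. Of 8 hepatocyte markers, none was at 0 in any library and 1, Hnf4a, passed the test in HFD_HDCA against ND. In that comparison 6.47% of all tested genes were called. The urea cycle gene Ass1, listed as a periportal marker, did not exceed 0.759 CPM in any library. Myh4 of muscle and Prss1 and Ins2 of pancreas were at 0 in all 9 libraries. HFD 1 and HFD_HDCA 1 were unlike the rest of their diets. The clock output gene Dbp read 85.8 CPM in HFD 1, where the companions read 2.27 and 1.41, and the acute phase gene Saa1 read 3371 CPM in HFD_HDCA 1, where the companions read 23.4 and 38.02. In a bulk sample fewer cells of a type and less RNA per cell cannot be told apart.

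Across the set, the HFD_HDCA livers held the lower levels, and the HFD livers lay close to ND for most enzymes. Reads of the 40 genes made up 1.88 ± 0.0840% of gene reads in ND, 1.75 ± 0.237% in HFD and 1.45 ± 0.0641% in HFD_HDCA (SD, n = 3 each). The shares of HFD_HDCA lay below those of ND without overlap. Tat alone accounted for 0.259% of gene reads in ND, 0.156% in HFD and 0.0730% in HFD_HDCA, and the other 39 enzymes for 1.62 ± 0.0701%, 1.59 ± 0.176% and 1.38 ± 0.0642%. Without Tat, the share of HFD_HDCA still lay below that of ND without overlap, while the HFD mean was close to that of ND and its libraries, from 1.39 to 1.72%, overlapped both other diets. In 11 of the 40 genes all 3 HFD_HDCA libraries lay below the other 6, which was so for 6.33% of all tested genes, and in none did they lie above, which was so for 7.4% of all tested genes. The 11 were Tat, Haao, Mccc1, Mccc2, Pccb, Shmt2, Aldh7a1, Gcdh, Got2, Prodh and Aldh4a1. The genes were chosen with earlier results on these data known, so these shares are a description.

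**Figure D1:**
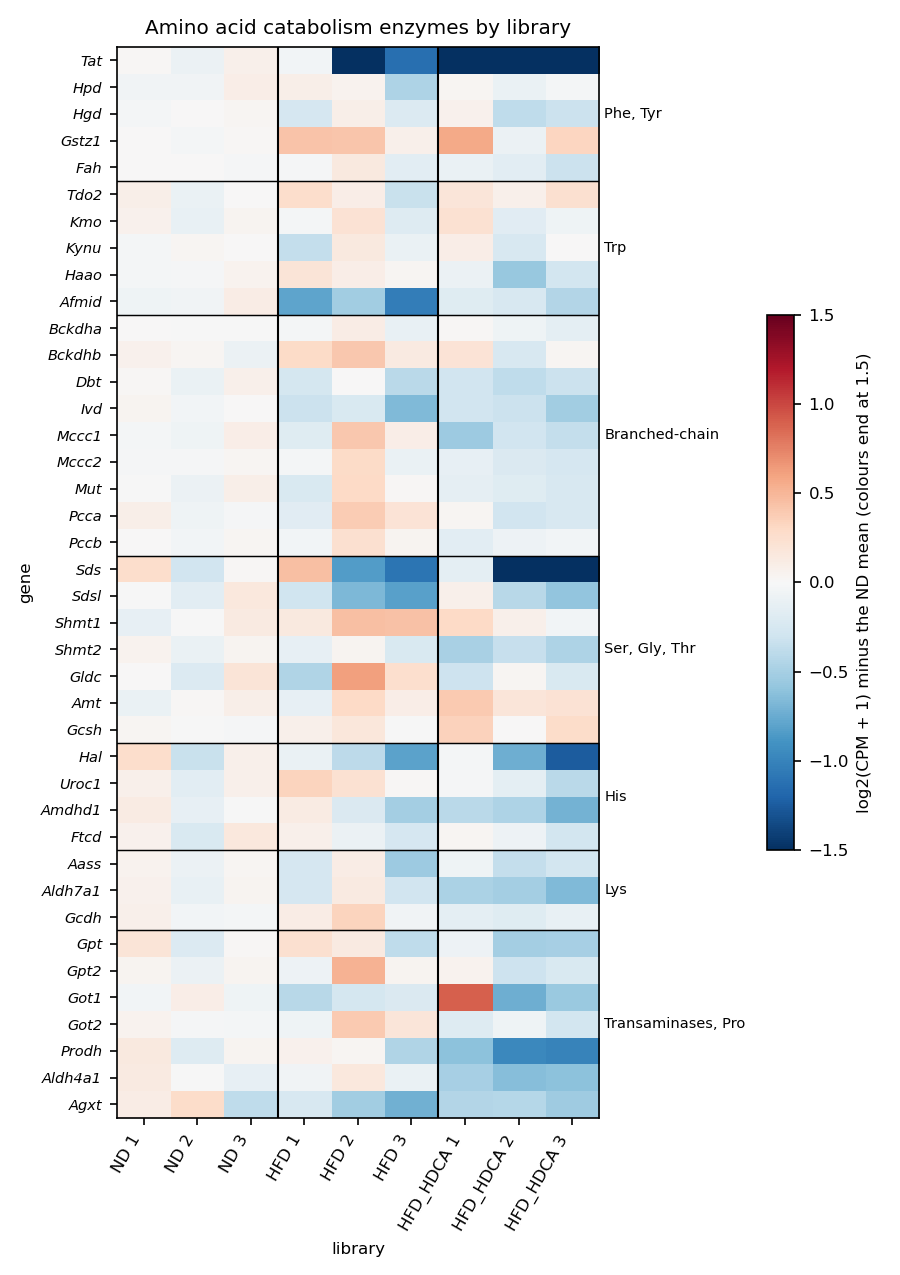
Each row is 1 of the 40 enzymes and each column 1 of the 9 libraries; the colour is log2(CPM + 1) minus the mean of the 3 ND libraries, with the scale ending at 1.5 in both directions. Tat is deep blue in all 3 HFD_HDCA libraries. Sds is as deep in HFD_HDCA 2 and HFD_HDCA 3 (47.1 and 49.7 CPM) but not in HFD_HDCA 1 (154 CPM). Within HFD, the first library of Tat (2463 CPM) is close to ND while the other 2 are not. Got1 is red in HFD_HDCA 1 alone (418 CPM).

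In HFD against ND, 1 of 40 enzymes fell and none rose by edgeR's quasi-likelihood test at an adjusted p under 0.05, where 0.953% of all tested genes were called, 0.477% lower and 0.477% higher. The median log2 fold change of the set was -0.0022, beside 0.019 over all tested genes, and 20 of 40 values were above 0, against 53.3% of all genes. At an unadjusted p under 0.05, 5 enzymes were lower and 1 higher, against 4.83% and 6.67% of all genes (11.5% in either direction). The HFD libraries of 4 enzymes lay entirely below ND and those of 3 entirely above, against 9.2% and 10.9% of all genes.

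In HFD_HDCA against HFD, 2 of 40 enzymes fell and none rose, against 1.73% of all tested genes called lower and 1.67% higher (3.4% in either direction). The median was -0.21 beside -0.0020 over all genes, and 11 of 40 values were above 0, against 49.7%. At an unadjusted p under 0.05, 11 were lower and 1 higher, against 10.4% and 11.6% of all genes (22% in either direction). The libraries of 12 enzymes lay entirely below those of HFD and of 1 entirely above, against 11.1% and 11.3%. In HFD_HDCA against ND, 5 of 40 fell and none rose, against 2.82% called lower and 3.65% higher (6.47% in either direction). The median was -0.19 beside 0.027, and 8 of 40 values were above 0, against 53%. At an unadjusted p under 0.05, 10 were lower and none higher, against 11.4% and 14.8% (26.1% in either direction). Without overlap, 18 enzymes lay below ND and 1 above, against 16.1% and 17.8% of all genes. The comparisons share libraries with each other. With the deposited FPKM values in place of counts, 62.9% of the 175 genes called in HFD against ND were higher rather than 50%, and 27.3% of the 516 called in HFD_HDCA against HFD rather than 49.1%.

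**Figure D2:**
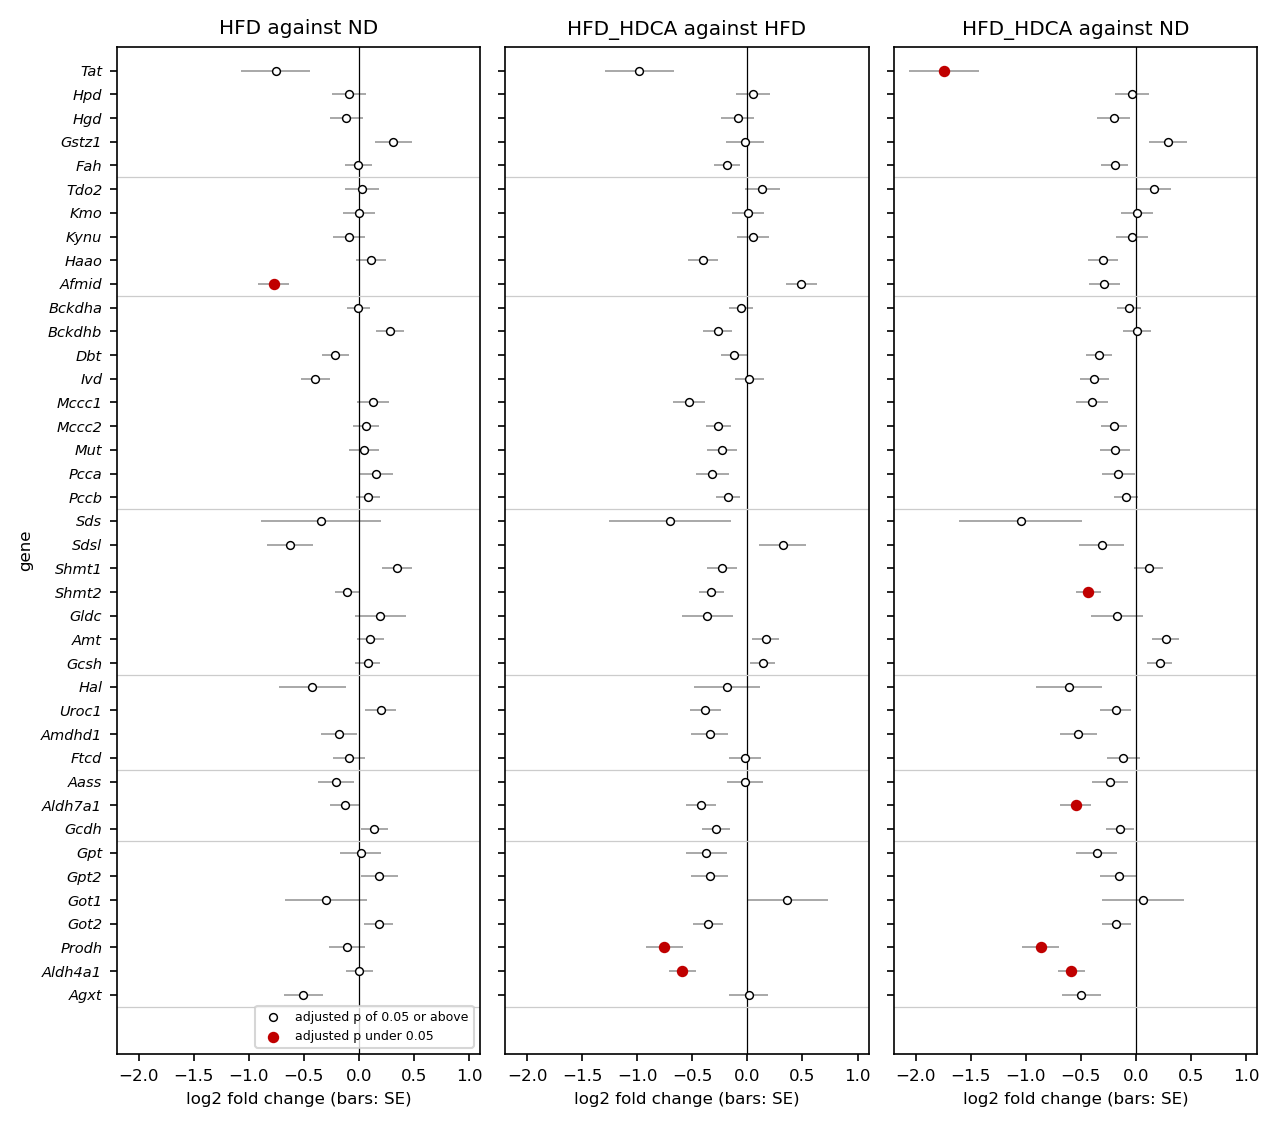
Log2 fold changes of the 40 enzymes (x axis, bars are standard errors) in the 3 comparisons, with genes in rows by amino acid group; filled red points have an adjusted p under 0.05. There is 1 filled point in HFD against ND (Afmid), 2 in HFD_HDCA against HFD (Prodh and Aldh4a1) and 5 in HFD_HDCA against ND, all to the left of 0.

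The enzymes of proline breakdown fell with HDCA against both other diets. Prodh, proline dehydrogenase, oxidises proline to pyrroline-5-carboxylate in mitochondria, and Aldh4a1, which catalyses the following step, oxidises that product to glutamate. Prodh (mm10, chr16:18071726-18089190, minus strand) was at 190.2, 151 and 177 CPM in the ND livers, 179.9, 175 and 125 in the HFD livers and 111, 87.2 and 85.6 in the HFD_HDCA livers. Every HFD_HDCA library lay below every library of the other diets, and ND and HFD overlapped. The log2 fold change was -0.76 (SE 0.17, adjusted p = 0.0395) against HFD and -0.87 (SE 0.17, adjusted p = 0.0163) against ND, while HFD against ND gave -0.11 (SE 0.17, adjusted p = 0.861). Aldh4a1 (chr4:139622894-139649691, plus strand) was at 597, 542 and 497 CPM in ND, 524, 608 and 509 in HFD and 386, 349 and 354 in HFD_HDCA, again with the HFD_HDCA libraries below all others. Its log2 fold change was -0.59 (SE 0.12, adjusted p = 0.0325) against HFD and -0.59 (SE 0.12, adjusted p = 0.02201) against ND, and its HFD mean of 547 ± 53.3 CPM differed from the ND mean of 545 ± 49.8 CPM by less than the spread between libraries. Against HFD, the call of Prodh held without HFD 3 or HFD_HDCA 1 and not without any 1 of the other 7 libraries (adjusted p 0.0583 to 0.132). That of Aldh4a1 held without ND 3, HFD 1 or HFD_HDCA 1 and not without any 1 of the other 6 (0.0517 to 0.111), and with the ND libraries left out of the fit neither passed (adjusted p 0.1 and 0.103). Against ND, Prodh lost its call without ND 1, ND 3 or HFD_HDCA 3 (0.0561 to 0.0811) and Aldh4a1 without ND 1, ND 2 or HFD_HDCA 3 (0.0762 to 0.115).

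The sequences before the start of both genes are shown because Prodh and Aldh4a1 act one after the other and both fell. They are the 250 bases before the start that the RefSeq promoter table gives (GRCm38.p6, the assembly of mm10), 5′ to 3′ on the strand of the gene, at chr16:18089191-18089440 for Prodh and chr4:139622644-139622893 for Aldh4a1. These starts equal those of the deposited FPKM tables. The full RefSeq gene reaches farther upstream, so that the last 93 bases of the Prodh sequence and the last 23 of the Aldh4a1 sequence lie within it. Capitals mark the CCAAT box, read on either strand (CCAAT or its complement ATTGG).
Prodh: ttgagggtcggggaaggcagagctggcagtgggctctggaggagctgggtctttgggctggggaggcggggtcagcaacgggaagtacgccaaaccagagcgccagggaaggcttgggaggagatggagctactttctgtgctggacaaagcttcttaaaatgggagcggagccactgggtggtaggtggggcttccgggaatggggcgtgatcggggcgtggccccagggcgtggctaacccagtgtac
Aldh4a1: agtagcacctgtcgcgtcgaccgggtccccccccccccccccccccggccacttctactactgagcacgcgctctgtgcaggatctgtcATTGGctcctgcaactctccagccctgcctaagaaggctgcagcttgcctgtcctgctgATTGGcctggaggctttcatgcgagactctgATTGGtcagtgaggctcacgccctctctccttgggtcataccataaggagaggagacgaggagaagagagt
The Aldh4a1 window holds the CCAAT box 3 times, each on the reverse strand, at bases -161 to -157, -102 to -98 and -71 to -67 counted from the start. The Prodh sequence holds none of the 11 motifs searched on both strands. Windows of 300 bases, from 250 before to 50 after the start, were on hand for 33 of the 40 enzymes and for 27025 genes in all. The CCAAT box was in 19 of the 33 enzymes and in 41.1% of all genes, the nuclear receptor half-site AGGTCA in 10 of 33 and 18.1%, the GC box GGGCGG in 15 of 33 and 38.2%, the TATA box TATAAA in 5 of 33 and 15.7%, and the E-box CACGTG in 1 of 33 and 8.09%. None of the 33 held the other 6 motifs, which were the direct repeat DR1 (which contains the half-site), the palindromic glucocorticoid element, the cAMP element TGACGTCA, CAAAGTCCA bound by HNF4A, TTGCGCAA bound by C/EBP factors, and the D-box TTATGTAA. These 6 were in 0.0111 to 2.03% of all genes. A match is only a match of letters.

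Apart from Tat, described with the tyrosine enzymes, the transaminases of the set (Got1, Got2, Gpt, Gpt2 and Agxt) did not pass the test. Got2, the mitochondrial aspartate transaminase, was at 341, 324 and 321 CPM in ND, 315, 431 and 372 in HFD and 286, 314 and 271 in HFD_HDCA, so that the HFD_HDCA libraries lay below the other 6 (log2 fold change -0.36, SE 0.13, adjusted p = 0.152 against HFD). A processed copy of Got2 is annotated (Got2-ps1), and its reads could be split between the copies. The cytosolic form, Got1, was at 219.7, 241 and 216 CPM in ND, 169, 187 and 194 in HFD and 418, 136 and 153 in HFD_HDCA. HFD_HDCA 1, the library with high Saa1, was the highest of the 9 and the other 2 HFD_HDCA libraries were the lowest, and the part of the acute phase difference in this was not tested. Without HFD_HDCA 1, Got1 was called lower in HFD_HDCA against ND. Gpt and Gpt2, the cytosolic and mitochondrial alanine transaminases, had HFD_HDCA means of 195 ± 34.7 and 362 ± 49.1 CPM beside HFD means of 252 ± 54.2 and 459 ± 105 CPM, with overlapping libraries. Agxt, which transaminates glyoxylate to glycine, averaged 434 ± 95.7 CPM in ND, 305 ± 52.3 in HFD and 307 ± 12.3 in HFD_HDCA, with adjusted p-values of 0.283 for HFD and 0.114 for HFD_HDCA against ND.

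Of the 5 tyrosine enzymes, the first, Tat, fell in HFD_HDCA against ND, and the other 4 did not pass the test in any comparison. Tat, tyrosine aminotransferase (chr8:109990436-109999804, plus strand), was at 2561, 2379 and 2679.8 CPM in ND, 2463, 881 and 1162 in HFD and 793, 746 and 739 in HFD_HDCA. The HFD_HDCA libraries lay below all others and varied little, whereas HFD 1 lay within the ND range and HFD 2 and HFD 3 lay between ND and HFD_HDCA. In HFD_HDCA against ND, Tat had a log2 fold change of -1.74 with a standard error of 0.32 (adjusted p = 0.0146), that is, 0.299 of the ND level, the largest fitted difference among the 40 enzymes in any of the 3 comparisons. HFD against ND gave -0.76 (SE 0.31, adjusted p = 0.383) and HFD_HDCA against HFD -0.98 (SE 0.31, adjusted p = 0.112). Both values turned on single HFD libraries. In HFD against ND the log2 fold change was -1.32 without HFD 1 (adjusted p = 0.00431) and -0.49 without HFD 2 (0.624). In HFD_HDCA against HFD it was -0.43 without HFD 1 (0.114) and -1.26 without HFD 2 (0.0459), and DESeq2's Wald test on all libraries called it (-0.99, adjusted p = 0.0146). The call against ND was lost without ND 1, HFD_HDCA 1 or HFD_HDCA 3, with adjusted p-values from 0.0548 to 0.0608.

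Downstream of Tat, Hpd, the dioxygenase that forms homogentisate, averaged 2148 ± 132 CPM in ND, 2020.1 ± 399 in HFD and 2096 ± 100.2 in HFD_HDCA. Hgd, which opens the ring of homogentisate, averaged 829.6 ± 17.9, 766 ± 101 and 721 ± 126 CPM in the same order. Gstz1, maleylacetoacetate isomerase, was at 784, 765 and 785 CPM in ND, 1046, 1035 and 819 in HFD and 1156, 732 and 971 in HFD_HDCA. All HFD libraries lay above ND, but the difference did not pass the test (log2 fold change 0.31, SE 0.17, adjusted p = 0.543). Fah, which makes the last cut to fumarate and acetoacetate, averaged 617 ± 7.397 CPM in ND, 614 ± 64.8 in HFD and 539.6 ± 43.01 in HFD_HDCA (adjusted p = 0.334 against ND). At this depth and replication, differences of the size seen for these 4 enzymes could not be told from the spread between libraries.

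On the kynurenine route of tryptophan, Afmid was the enzyme that fell on HFD. Afmid, kynurenine formamidase (chr11:117825919-117839908, plus strand), was at 167, 168 and 189 CPM in ND, 101, 121 and 84.8 in HFD and 154, 147 and 128 in HFD_HDCA. The 3 diets did not overlap, with HFD lowest, HFD_HDCA between and ND highest. Against ND, HFD had a log2 fold change of -0.78 (SE 0.14, adjusted p = 0.0317). HFD_HDCA against HFD gave 0.49 (SE 0.14, adjusted p = 0.0864) and HFD_HDCA against ND -0.29 (SE 0.14, adjusted p = 0.224), neither of them called. DESeq2's Wald test called the rise of HFD_HDCA over HFD (log2 fold change 0.48, adjusted p = 0.0258). The call in HFD against ND was lost without ND 1, ND 2, ND 3, HFD 1 or HFD 3, with adjusted p-values from 0.0504 to 0.156. Exons of Tk1 overlap those of Afmid on the opposite strand. Tk1 was at 18.2, 18.05 and 20.3 CPM in ND, 16.8, 11.2 and 13.96 in HFD and 28.7, 13.4 and 13.3 in HFD_HDCA. Its HFD libraries lay below ND without overlap, as those of Afmid did. Whether the counting used strand is not stated, so reads of the pair may not have been kept apart. GENCODE also annotates a gene on the same strand whose exons overlap those of Afmid (Gm20708), and likewise for Aldh4a1 (Gm21969), and no counts of these 2 were used here.

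The other kynurenine enzymes did not pass the test in any comparison. Haao, which oxidises 3-hydroxyanthranilate on the way to NAD, was at 465, 469 and 495 CPM in ND, 543, 511 and 485 in HFD and 449, 321 and 393 in HFD_HDCA. The HFD_HDCA libraries lay below the other 6, with a log2 fold change against HFD of -0.40 (SE 0.14, adjusted p = 0.123). Tdo2, tryptophan dioxygenase and the first enzyme of the route, averaged 1804 ± 118 CPM in ND, 1837 ± 375 in HFD and 2018 ± 116 in HFD_HDCA. Kmo, the monooxygenase, averaged 396 ± 25.3, 396 ± 57.3 and 398 ± 58.4 CPM, and Kynu, kynureninase, 260.3 ± 5.46, 245 ± 43.2 and 254 ± 30.7 CPM. The diets overlapped for these 3 genes.

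**Figure D3:**
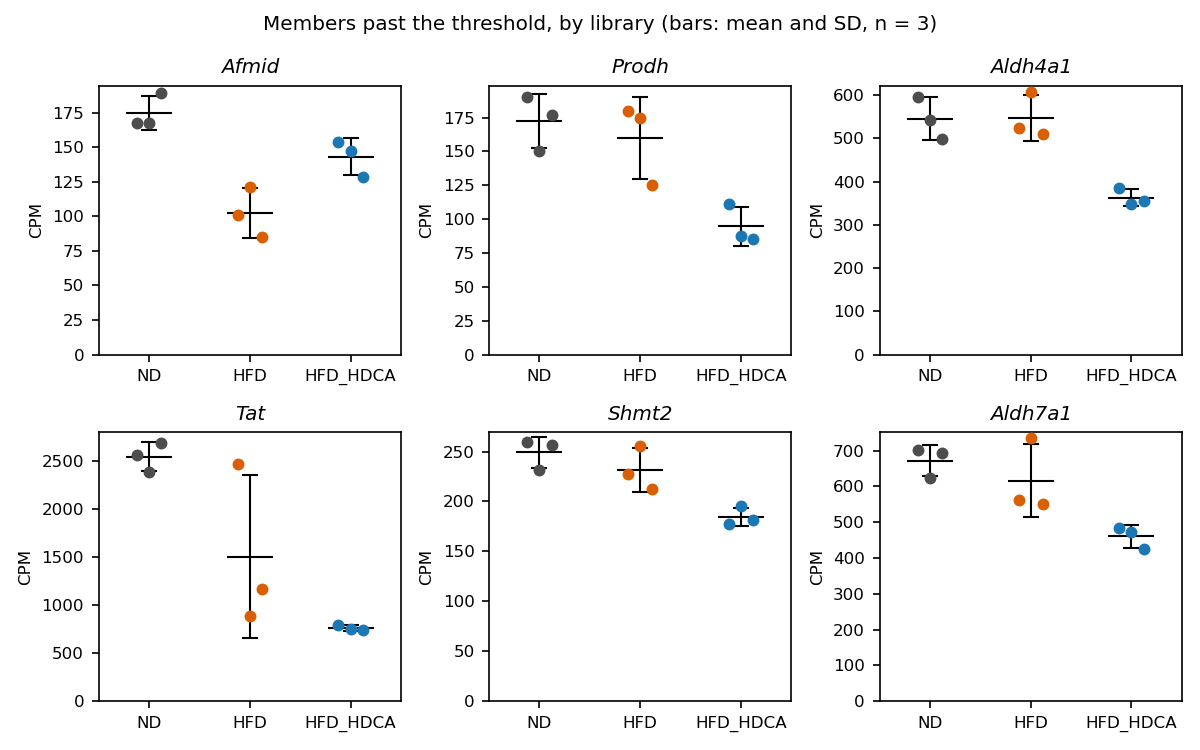
CPM (y axis from 0) of the 6 enzymes past the threshold in at least 1 comparison, by diet; points are the 3 libraries of a diet, drawn in the order 1 to 3, and bars show mean and SD. The HFD_HDCA points of Prodh, Aldh4a1, Tat, Shmt2 and Aldh7a1 lie below all points of ND and HFD, and for Afmid the HFD points are lowest.

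None of the 9 branched-chain enzymes passed the test in any comparison. Their median log2 fold change was 0.065 in HFD against ND, -0.24 in HFD_HDCA against HFD and -0.19 in HFD_HDCA against ND. In each of the last 2 comparisons, 8 of 9 values were below 0 and 1 above. Of all genes, 49.7% and 53% were above 0 in these 2 comparisons. Mccc1 and Mccc2 are the subunits of 3-methylcrotonyl-CoA carboxylase in leucine breakdown. Mccc1 was at 68.02, 66.5 and 74.6 CPM in ND, 61.4, 92.7 and 74.8 in HFD and 47.3, 57.1 and 54.1 in HFD_HDCA, where the HFD_HDCA libraries lay below the rest (log2 fold change -0.53, SE 0.15, adjusted p = 0.0777 against HFD). Mccc2 had the same order of diets, with HFD_HDCA at 75.9, 71.2 and 69.5 CPM and the other 6 libraries from 77.04 to 102 CPM. Ivd, isovaleryl-CoA dehydrogenase of the same pathway, was instead low on both high-fat diets, at 263, 248 and 256 CPM in ND, 204, 217 and 161 in HFD and 209, 204 and 177 in HFD_HDCA. All 6 high-fat libraries lay below ND, and the log2 fold changes were -0.40 (SE 0.13, adjusted p = 0.253) for HFD and -0.38 (SE 0.13, adjusted p = 0.109) for HFD_HDCA.

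The branched-chain ketoacid dehydrogenase commits the carbon skeletons to breakdown. Of its subunits, Bckdha averaged 267 ± 1.61 CPM in ND, 266 ± 20.8 in HFD and 255 ± 15.4 in HFD_HDCA, Bckdhb 62.3 ± 3.32, 75.6 ± 7.101 and 62.6 ± 9.74 CPM, and Dbt 149 ± 9.05, 129 ± 18.7 and 118 ± 3.63 CPM. Only for Dbt did the HFD_HDCA libraries lie entirely below ND (adjusted p = 0.116). Propionyl-CoA carboxylase and methylmalonyl-CoA mutase take the products of valine and isoleucine into the citric acid cycle. Their genes averaged 89.2 ± 11.1 CPM (Pcca), 201 ± 8.33 CPM (Pccb) and 202 ± 7.37 CPM (Mut, now named Mmut) in HFD_HDCA, beside 111 ± 21.3, 227 ± 22.8 and 238 ± 43.4 CPM in HFD. The adjusted p-values were 0.243, 0.365 and 0.339.

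In serine and glycine metabolism, Shmt2 fell in HFD_HDCA against ND. Shmt2, the mitochondrial serine hydroxymethyltransferase (chr10:127517123-127522444, minus strand), was at 259, 232 and 257 CPM in ND, 228, 255 and 212 in HFD and 177, 195 and 181 in HFD_HDCA. The HFD_HDCA libraries lay below the other 6, with log2 fold changes of -0.43 (SE 0.11, adjusted p = 0.0479) against ND and -0.33 (SE 0.11, adjusted p = 0.128) against HFD. The call held without HFD 1, HFD 2 or HFD_HDCA 2 and not without any 1 of the other 6 libraries (adjusted p 0.0551 to 0.179). Ndufa4l2, whose exons overlap on the opposite strand, did not exceed 1.61 CPM. The cytosolic form, Shmt1, averaged 186 ± 16.8 CPM in ND, 237 ± 27.2 in HFD and 202 ± 25.3 in HFD_HDCA, and its HFD libraries lay above ND (log2 fold change 0.35, SE 0.14, adjusted p = 0.348).

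Serine dehydratase, Sds, deaminates serine to pyruvate and varied widely within diets. It was at 206, 139.7 and 173 CPM in ND, 234, 95.5 and 79.8 in HFD and 154, 47.1 and 49.7 in HFD_HDCA. In each diet the library numbered 1 was the highest, and the HFD_HDCA mean of 83.6 ± 61.04 CPM against 173 ± 33.1 in ND did not pass the test (log2 fold change -1.05, SE 0.55, adjusted p = 0.266). Sdsl, a related dehydratase, was at 14.7, 13.1 and 16.6 CPM in ND, 11.8, 8.89 and 7.97 in HFD and 15.6, 10.7 and 9.45 in HFD_HDCA. Its HFD libraries lay below ND (log2 fold change -0.63, SE 0.21, adjusted p = 0.2495). The glycine cleavage system is made of Gldc, Amt, Gcsh and the shared subunit Dld. Gldc, its decarboxylase, ranged from 217 to 454 CPM within HFD alone. Amt was the 1 enzyme of the set whose HFD_HDCA libraries all lay above ND, at 71.6, 61.4 and 63.2 CPM against 50.4, 54.7 and 57.8 (adjusted p = 0.204), and Gcsh averaged 116 ± 2.04 CPM in ND, 122 ± 7.58 in HFD and 134 ± 16.6 in HFD_HDCA.

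Histidine is opened by Hal (histidase), Uroc1 (urocanase) and Amdhd1 (imidazolonepropionase) and ends with Ftcd, which hands its formimino group to folate. None of the 4 passed the test. Amdhd1 was at 326, 274 and 297 CPM in ND, 326, 256 and 209 in HFD and 226, 216 and 181 in HFD_HDCA, and HFD_HDCA lay below ND without overlap (log2 fold change -0.52, SE 0.17, adjusted p = 0.0872). Uroc1 was at 478, 407 and 477 CPM in ND, 569, 532 and 459.9 in HFD and 448, 408 and 342 in HFD_HDCA, and here HFD_HDCA lay below HFD without overlap (log2 fold change -0.38, SE 0.14, adjusted p = 0.152). Hal ran from 196 to 558 CPM over the 9 libraries and Ftcd from 403 to 547 CPM, with overlapping diets. For Hal, Uroc1 and Amdhd1, as for Sds, Gpt and Prodh, the library numbered 1 was the highest in all 3 diets, which was so for 6 of 40 enzymes and 5.71% of all tested genes. Dbp and a second clock gene, Arntl, moved with that number. Dbp stood at 14.6, 85.8 and 10.5 CPM in the libraries numbered 1 of ND, HFD and HFD_HDCA, and between 0.752 and 3.58 CPM in the other 6. Arntl stood at 17.3, 26.2 and 42.9 CPM in ND, 4.71, 41.1 and 37.6 in HFD and 25.3, 36.6 and 36.3 in HFD_HDCA, lowest in the library numbered 1 of each diet. The part of the clock genes in these values was not tested.

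In lysine breakdown, Aldh7a1 fell in HFD_HDCA against ND. Aldh7a1, the dehydrogenase of aminoadipic semialdehyde (chr18:56525736-56572939, minus strand), was at 701, 623 and 693 CPM in ND, 562, 735 and 552 in HFD and 484, 472 and 424 in HFD_HDCA. The HFD_HDCA libraries lay below the other 6, with log2 fold changes of -0.55 (SE 0.14, adjusted p = 0.0454) against ND and -0.42 (SE 0.14, adjusted p = 0.1196) against HFD. The call held without HFD 1, HFD 2 or HFD_HDCA 1 and not without any 1 of the other 6 libraries (adjusted p 0.0505 to 0.168). Phax, whose exons overlap on the opposite strand, ran from 17.1 to 22.7 CPM. Gcdh, glutaryl-CoA dehydrogenase at a later step, was at 755, 693 and 701 CPM in ND, 771, 906 and 692 in HFD and 648, 629 and 665 in HFD_HDCA. It was again lowest in the HFD_HDCA libraries but did not pass the test (log2 fold change -0.29, SE 0.13, adjusted p = 0.218 against HFD). Aass, the first enzyme, averaged 388 ± 20.4 CPM in ND, 337 ± 76.98 in HFD and 330.4 ± 35.03 in HFD_HDCA, and its diets overlapped.

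Levels of different enzymes were compared on the deposited FPKM scale, which corrects for transcript length. The aromatic amino acid enzymes led. The mean FPKM over 9 libraries was 1201 for Hpd, 891 for Tdo2, 520.0 for Tat, 437 for Gstz1 and 365 for Hgd. The lowest were Mccc1 at 16.2 and Sdsl at 7.67. Tat stood at 811, 775 and 826 FPKM in the ND libraries and 241, 246 and 235 in the HFD_HDCA libraries. In ND its mean lay between Tdo2 (831 ± 47.3, SD, n = 3), from which it did not differ beyond the spread, and Hgd (383 ± 10.7). In HFD_HDCA it lay below Hgd (330.3 ± 44.2) and beside Haao (245 ± 29.2) and Fah (252 ± 21.7), from which it did not differ beyond their spread. The subunits of a complex had unlike levels: Bckdha was at 114 FPKM, Bckdhb at 38.7 and Dbt at 30.5, and Pccb at 70.5 against 29.8 for Pcca.

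**Figure D4:**
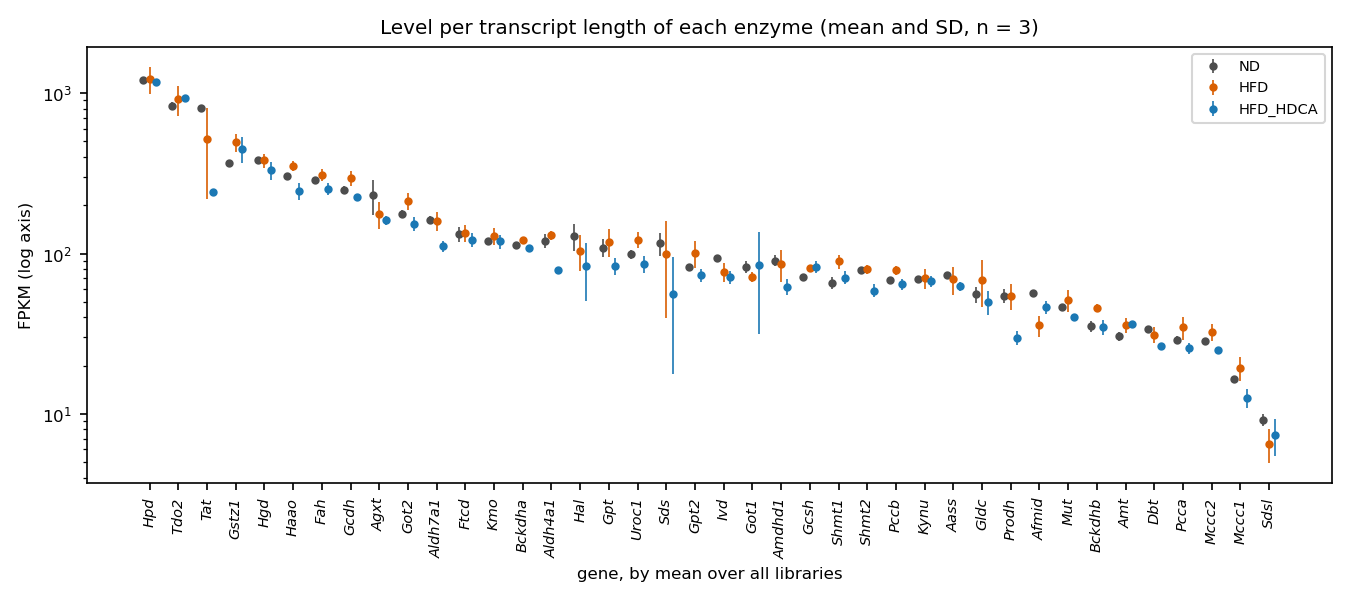
Mean FPKM (log axis, bars are SD, n = 3) of the 40 enzymes in each diet, with genes ordered by their mean over all 9 libraries. Hpd and Tdo2 are highest and Sdsl lowest, and the HFD_HDCA point of Tat lies well under its ND point.

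Enzymes of the same pathways outside the set were counted from lists that hold 76 genes, of which 69 were tested. In HFD against ND, 1 fell and none rose (0.477% of all tested genes in each direction). In HFD_HDCA against HFD, 1 fell and 1 rose (1.73% and 1.67%), and in HFD_HDCA against ND, 7 fell and 6 rose (2.82% and 3.65%). Their median log2 fold changes were 0.050, 0.019 and -0.013 in the same order. Thus calls in HFD_HDCA against ND went in both directions outside the set.

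Acmsd, which diverts the product of Haao away from NAD, was at 30.6, 26.2 and 44.9 CPM in ND, 12.7, 11.2 and 10.7 in HFD and 9.45, 4.53 and 6.92 in HFD_HDCA. It fell against ND on both high-fat diets. The log2 fold change was -1.56 (SE 0.26, adjusted p = 0.0239) on HFD and -2.28 (SE 0.27, adjusted p = 0.00231) on HFD_HDCA. The second call held whichever of the 9 libraries was left out. Naprt1, an enzyme of NAD formation from nicotinate, rose in HFD_HDCA against ND (log2 fold change 0.36, SE 0.09, adjusted p = 0.0473). That call held without HFD 1 and not without any 1 of the other 8 libraries (adjusted p 0.0553 to 0.168).

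Of 17 tested branched-chain genes outside the set, 4 rose and 2 fell in HFD_HDCA against ND, and 1 rose in HFD_HDCA against HFD. Of all tested genes, 3.65% rose and 2.82% fell in the first comparison, and 1.67% rose in the second. Bckdk, the kinase that inhibits the branched-chain dehydrogenase, was at 11.6, 10.03 and 11.9 CPM in ND, 15.98, 16.3 and 16.5 in HFD and 18.2, 19.8 and 16.9 in HFD_HDCA, and rose in HFD_HDCA against ND (log2 fold change 0.72, SE 0.11, adjusted p = 0.007696), whichever library was left out. Ppm1k, the phosphatase that activates the same complex, was at 86.6, 79.2 and 76.9 CPM in ND, 88.8, 59.2 and 49.4 in HFD and 101, 141 and 122 in HFD_HDCA, and rose in HFD_HDCA against HFD (log2 fold change 0.89, SE 0.20, adjusted p = 0.0427). That call held without HFD 1 or HFD_HDCA 1 and not without any 1 of the other 7 libraries (adjusted p 0.0672 to 0.126). The thiolase Acat1 averaged 484 ± 43.7 CPM in ND and 892 ± 146 in HFD_HDCA (adjusted p = 0.0184). Acat1 was not called in HFD against ND or in HFD_HDCA against HFD. Also past the threshold in HFD_HDCA against ND, and named after their values were seen, were Bcat2 (log2 fold change 0.54, adjusted p = 0.04999), Acadsb (-0.51, adjusted p = 0.04999) and Hibadh (-0.48, adjusted p = 0.0436).

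Of 11 tested genes beside the serine and glycine enzymes, 2 fell in HFD_HDCA against ND and 1 in HFD_HDCA against HFD. Of 6 beside the histidine enzymes, 1 fell and 1 rose in HFD_HDCA against ND. Of all tested genes, 2.82% fell and 3.65% rose in HFD_HDCA against ND, and 1.73% fell in HFD_HDCA against HFD. Dmgdh, dimethylglycine dehydrogenase, was at 740.2, 586 and 748 CPM in ND, 488, 841 and 663 in HFD and 319, 366 and 414 in HFD_HDCA. It fell with HDCA, at a log2 fold change of -0.86 against HFD (SE 0.20, adjusted p = 0.0441) and -0.92 against ND (SE 0.20, adjusted p = 0.02502). The first call held without HFD 1 and not without any 1 of the other 8 libraries (0.0667 to 0.120). Gcat, of threonine breakdown, averaged 82.8 ± 3.42 CPM in ND, 57.9 ± 4.69 in HFD and 55.9 ± 6.896 in HFD_HDCA (adjusted p = 0.0189 for HFD_HDCA against ND). Aldh1l1, the cytosolic formyltetrahydrofolate dehydrogenase, was at 1513, 1166 and 1366 CPM in ND, 997, 1202 and 1008 in HFD and 805, 632 and 528 in HFD_HDCA. It fell in HFD_HDCA against ND (log2 fold change -1.04, SE 0.17, adjusted p = 0.00915). Its mitochondrial form, Aldh1l2, was rare and went the other way, from 0.416, 0.379 and 0.578 CPM in ND to 1.64, 1.104 and 1.805 in HFD_HDCA (log2 fold change 1.71, SE 0.38, adjusted p = 0.0279). Aldh1l2 was not called in HFD against ND or in HFD_HDCA against HFD.

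Leaving out single libraries ended several of these calls. In HFD_HDCA against ND, Aldh1l1 lost its call without ND 1 (adjusted p 0.0509) and Dmgdh without ND 1, ND 3, HFD_HDCA 1 or HFD_HDCA 3 (0.0555 to 0.106). Acat1 and Gcat lost theirs without any 1 of the ND libraries or HFD_HDCA 3 (0.0533 to 0.0990 and 0.0564 to 0.0925), and Aldh1l2 also without HFD_HDCA 1 (0.0617 to 0.127). In HFD against ND, Acmsd lost its call without ND 1, ND 3, HFD 2 or HFD 3 (0.0667 to 0.0957).

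**Figure D5:**
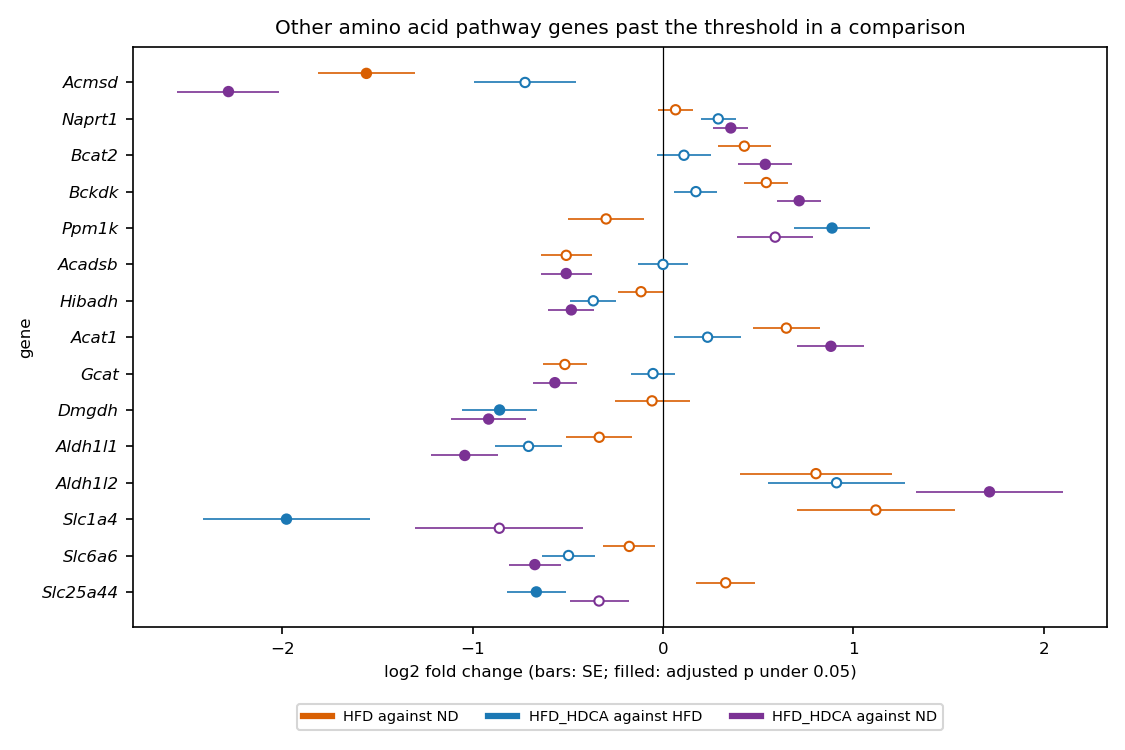
Log2 fold changes (x axis, bars are SE) of amino acid pathway genes and transporters outside the set that passed the threshold in at least 1 of 3 comparisons, leaving out those not reported here; colours are comparisons and filled points have an adjusted p under 0.05. Acmsd is farthest left and Aldh1l2 farthest right, both in HFD_HDCA against ND.

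Marker lists of the lobule and of other liver cells were read beside these results. Of 11 periportal markers, 3 fell and 1 rose in HFD_HDCA against ND and 1 fell in HFD against ND. Of 11 pericentral markers, 2 fell in HFD_HDCA against HFD, 2 fell in HFD_HDCA against ND and 1 fell in HFD against ND. Of all tested genes, 2.82% were called lower and 3.65% higher in HFD_HDCA against ND. Those called lower made up 1.73% in HFD_HDCA against HFD and 0.477% in HFD against ND. The 3 periportal genes that fell were Cps1 (log2 fold change -1.11), Cyp2f2 (-1.06) and Sult5a1 (-1.49), and the 1 that rose was Hsd17b13 (0.75), all named after their values were seen. Summed periportal markers ran from 69979.6 to 77353 CPM in ND, 83042 to 101765 in HFD and 85103 to 100140.0 in HFD_HDCA, most of it from Alb, and pericentral markers from 11773 to 13636, 10517 to 15258 and 10862 to 15201 CPM in the same order, most of it from Cyp2e1. Read gene by gene, most pericentral markers were lower with HDCA. Of the 11 markers, 9 had a log2 fold change below 0 against HFD. Against ND, 7 had one below 0 and 4 had one above. Their median log2 fold change was -0.71 in HFD_HDCA against HFD, where 7 of 11 were lower at an unadjusted p under 0.05 (10.4% of all genes) and 6 of 11 lay below HFD without overlap (11.1%), and -0.44 in HFD_HDCA against ND. Their mean log2(CPM + 1), relative to each gene's mean over the 9 libraries, was -0.47 to -0.16 in HFD_HDCA, beside -0.034 to 0.29 in ND and 0.0079 to 0.45 in HFD. The 3 HFD_HDCA libraries were thus the lowest of the 9, as they were for 11 of the enzymes. The same mean of the periportal markers was 0.17 to 0.52 in ND, -0.23 to -0.066 in HFD and -0.49 to 0.097 in HFD_HDCA, with median log2 fold changes of -0.50 in HFD against ND, -0.079 in HFD_HDCA against HFD and -0.78 in HFD_HDCA against ND. No marker of macrophages, endothelial, stellate or bile duct cells, T and NK cells, B cells or neutrophils passed the test in any comparison. Those tested were 5 of 8 listed for T and NK cells, 4 of 5 for B cells and 2 of 5 for neutrophils. In HFD_HDCA, 3 of 4 B cell markers lay above HFD without overlap and 3 of 4 above ND (11.3% and 17.8% of all genes). They summed to 4.87 to 7.45 CPM there. In HFD_HDCA against ND, 5 of 9 endothelial markers lay below without overlap and 1 above (16.1% and 17.8%). The lack of a call thus does not show that these cells were alike between diets. Macrophage markers summed to 460.4 to 552 CPM in ND, 168 to 1068 in HFD and 428 to 805 in HFD_HDCA, and endothelial markers to 416 to 476, 239 to 467 and 354 to 408 CPM. The part of lobule position or of other cells in the enzymes' differences was not tested.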

How the data were processed

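RNA from 9 livers, 3 per diet, had been prepared with a TruSeq kit, per the labels. Deposited HTSeq tables hold whole-number counts per gene with no normalization, and the authors' deposited Cufflinks tables hold FPKM per gene, per the file headers. Per the submitters' processing notes, the build is mm10 and the tools include Cufflinks 2.0.2 and TopHat 1.3.2, with no role given for either. The counting setting and annotation are not given in the sources used here. Rows that name no gene (5 classes) were left out, and gene reads made up 63.9 to 72.1% of the reads in a file.

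Groups and library numbers came from the sample titles. In R 4.3.3, edgeR 4.0.16 kept genes by filterByExpr (minimum count 10), scaled libraries by TMM and fitted all 9 libraries in 1 model with a coefficient per diet. The 3 diet comparisons were tested by its robust quasi-likelihood F test, two-sided, with Benjamini-Hochberg adjustment over all 12587 tested genes, and a gene was called at an adjusted p under 0.05. Standard errors follow from the F statistic, and CPM use TMM-scaled library sizes. Pairs of libraries within a diet differed by more than counting error (chi-square per degree of freedom 11.5 to 95.0). Deposited FPKM served for levels between genes and, as log2(FPKM + 1) in limma 3.58.1, for an alternative, and DESeq2 1.42.0 was another. The pipeline was tested on simulated data.

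The members and gene lists were chosen with earlier results of these data known. Values per library are given for every called member and, in each amino acid group, for the 2 members with the smallest p-values; others are summarised. From the other lists, called genes are named, up to 4 a list, with Bckdk, Klf15 and Ppargc1a fixed in any case; some genes of these lists are counted but not reported here by name. Sds, Got1 and Got2 and other genes marked as such in the text were added after their values were seen. Mccc2 and Amt also fall outside the rule, and values of their libraries are given for some diets. Positions are those of the deposited FPKM tables, and overlaps of exons come from the GENCODE M21 annotation.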

Additional observations from a re-analysis of the deposited data

How the results depend on the processing

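The tests rest on 3 libraries per diet, and calls near the threshold changed with single libraries. Leaving out 1 library in turn gave 0 to 1 called enzymes and 32 to 226 called genes in HFD against ND, 0 to 2 and 127 to 672 in HFD_HDCA against HFD, and 0 to 6 and 196 to 1213 in HFD_HDCA against ND. Without both HFD 1 and HFD_HDCA 1 the counts were 4 enzymes (Afmid, Sds, Sdsl and Tat) and 576 genes, 5 enzymes (Aldh4a1, Mccc1, Pcca, Prodh and Sds) and 977 genes, and 11 enzymes (Aldh4a1, Aldh7a1, Amdhd1, Got1, Haao, Hal, Prodh, Sds, Sdsl, Shmt2 and Tat) and 1157 genes. DESeq2's Wald test called 1, 8 and 7 enzymes and 366, 1040 and 1321 genes; beside those called by edgeR they were, in HFD_HDCA against HFD, Tat, Haao, Mccc1, Shmt2 and Aldh7a1 (lower) and Afmid (higher), and, in HFD_HDCA against ND, Ivd and Amdhd1 (lower). In log2 FPKM with limma, 1, 6 and 5 enzymes were called with a pseudocount of 1 or 0.1, and 0, 2 and 4 without the filter, where the called genes numbered 130, 272 and 526. On FPKM the median of all genes lay at 0.093 in HFD against ND and -0.088 in HFD_HDCA against HFD with a pseudocount of 1, and at 0.11 and -0.11 with 0.1, beside 0.019 and -0.0020 from counts. With only the 6 libraries compared in the fit, 1, 0 and 6 enzymes and 153, 134 and 1002 genes were called. The cause of these moves was not tested.

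The library numbers recur in the titles but are not said to mark anything shared, so they were not used as pairs. Deviations of same-numbered libraries correlated at -0.158 to 0.152, and those of libraries with unlike numbers at -0.197 to 0.174. Between libraries numbered 1 the values were 0.145 (ND and HFD), 0.152 (ND and HFD_HDCA) and 0.0923 (HFD and HFD_HDCA). A replicate block gave 0, 2 and 4 enzymes and 82, 328 and 715 genes. With the block Afmid in HFD against ND (adjusted p = 0.0530) and Shmt2 (0.0703) and Aldh7a1 (0.0616) in HFD_HDCA against ND were not called, and Sds was called in the last comparison. DESeq2 size factors in edgeR and the absence of a count filter called 1 and 1 enzymes in HFD against ND, 2 and 2 in HFD_HDCA against HFD and 5 and 4 in HFD_HDCA against ND.

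Of 1222 values of single genes under an alternative, 999 kept direction and side of the threshold, 161 lost a call, 35 gained one and 27 changed sign. In HFD against ND, Aldh4a1 moved to -0.0108 with DESeq2 size factors, -0.0126 with DESeq2 and -0.00089 with no filter, and ran from -0.0790 to 0.0730 without 1 library. Ppargc1a moved to -0.0215 with the replicate block and -0.37 without both libraries, and ran from -0.35 to 0.29 without 1 library. Shmt2 moved to 0.0029, 0.0030 and 0.0029 on the FPKM tables, and without 1 library Mccc1 ran from -0.0351 to 0.26 and Prodh from -0.20 to 0.0383. In HFD_HDCA against HFD, Ivd moved to -0.0936, -0.0946 and -0.0936 on the FPKM tables and ran from -0.10 to 0.107 without 1 library. Without 1 library, Gstz1 ran from -0.17 to 0.16, Klf15 from -0.76 to 0.0091 and Ppargc1a from -0.56 to 0.0745. None of these values was called on either side. The median log2 fold change of the enzymes ran from -0.09 to 0.10 in HFD against ND, from -0.34 to -0.11 in HFD_HDCA against HFD and from -0.28 to -0.16 in HFD_HDCA against ND.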

Other observations

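Amino acid transporters were counted from a list of 23 genes, of which 22 were tested. None passed the test in HFD against ND, 2 fell in HFD_HDCA against HFD and 1 fell in HFD_HDCA against ND. Of all tested genes, 0.953%, 3.4% and 6.47% were called in either direction. In HFD_HDCA against ND, 18 of 22 log2 fold changes were below 0 and 4 above. Their median was -0.36 beside 0.027 over all genes. At an unadjusted p under 0.05, 7 were lower there and 1 higher (11.4% and 14.8% of all genes). Without overlap, 8 lay below ND and 1 above (16.1% and 17.8%). Slc1a4, a transporter of alanine, serine and cysteine, was at 7.08, 6.504 and 5.26 CPM in ND, 5.52, 19.2 and 16.1 in HFD and 4.91, 3.08 and 2.41 in HFD_HDCA. HFD 2 and HFD 3 held the high values and HFD 1 lay within the ND range. The log2 fold change in HFD_HDCA against HFD was -1.98 (SE 0.44, adjusted p = 0.0436), which held without HFD 1 and not without any 1 of the other 8 libraries (adjusted p 0.0547 to 0.139). Slc25a44, the mitochondrial carrier of branched-chain amino acids, averaged 71.4 ± 6.89 CPM in ND, 89.7 ± 18.7 in HFD and 56.6 ± 5.904 in HFD_HDCA (log2 fold change -0.67, adjusted p = 0.0458 against HFD, lost without any 1 library other than HFD 1, at 0.0516 to 0.156). Slc6a6, the taurine transporter, was at 136, 149.8 and 152 CPM in ND, 146, 119 and 122 in HFD and 101, 98.3 and 75.1 in HFD_HDCA (log2 fold change -0.67, adjusted p = 0.0204 against ND, lost without any 1 ND library or HFD_HDCA 3, at 0.0625 to 0.0726).

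Of 16 regulators of these pathways, 1 fell in HFD against ND, and 2 fell and 1 rose in HFD_HDCA against ND. Of all tested genes, 0.477% were called lower in HFD against ND. In HFD_HDCA against ND, 2.82% were called lower and 3.65% higher. Foxo1, a transcription factor of the fasting response, was at 55.9, 50.95 and 52.9 CPM in ND, 36.6, 32.02 and 34.6 in HFD and 28.9, 34.6 and 31.9 in HFD_HDCA, lower than ND on both high-fat diets (log2 fold change -0.63, adjusted p = 0.0232, and -0.74, adjusted p = 0.00421). The second of these calls held whichever library was left out, and the first was lost without any 1 ND library, HFD 2 or HFD 3 (adjusted p 0.0751 to 0.104). Nr1h4, the bile acid receptor FXR, averaged 103 ± 14.8 CPM in ND, 134 ± 21.5 in HFD and 169 ± 12.6 in HFD_HDCA (adjusted p = 0.0202 for HFD_HDCA against ND, lost without ND 1, ND 2 or HFD_HDCA 3, at 0.0566 to 0.103). Hnf4a averaged 746 ± 35.2, 601 ± 35.9 and 535 ± 54.5 CPM (adjusted p = 0.0431), a call that held without HFD 1 or HFD_HDCA 2 and not without any 1 of the other 7 libraries (0.0527 to 0.150).

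Klf15, a factor known to act on amino acid degradation genes, had values that can be set beside those of Tat. It was at 269.8, 237 and 226 CPM in ND, 260.2, 124 and 101 in HFD and 132, 94.4 and 114 in HFD_HDCA, so that HFD 1 again lay within the ND range while HFD 2 and HFD 3 did not. The adjusted p-values of edgeR's quasi-likelihood test were 0.524 for HFD against ND, 0.363 for HFD_HDCA against HFD and 0.0691 for HFD_HDCA against ND, and none was called. HFD against ND passed without HFD 1 (log2 fold change -1.12 in place of -0.60, adjusted p = 0.01305). HFD_HDCA against ND (log2 fold change -1.11) passed without HFD 1 (0.00304), without HFD 3 (0.0351), with only the 6 libraries compared in the fit (0.00426), with the replicate block (0.0266) and by DESeq2's Wald test (0.00269). Pck1, a glucagon target of gluconeogenesis, was at 3407, 3057 and 3635 CPM in ND, 2784, 889.9 and 1063 in HFD and 3224, 2635 and 2218 in HFD_HDCA. HFD 1 was again the highest of the HFD libraries, and the HFD_HDCA libraries overlapped ND, which those of Tat did not. Pck1 is 1 of 12 listed targets of fasting, glucagon and glucocorticoids. In HFD_HDCA against ND their log2 fold changes ran from -2.64 to 4.65, with 5 above 0 and 7 below. Among the 12, 1 was called lower there, beside 2.82% of all tested genes. The part of these signals in the fall of Tat was not tested. Ppargc1a averaged 9.93 ± 2.36 CPM in ND, 10.1 ± 4.32 in HFD and 8.24 ± 1.798 in HFD_HDCA and was not called.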
